A study of Mus musculus with 60 samples.

Results

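The 4 genes described here are Ptgs2, Adm, Fam171b and Rrad, whose induction by hepatocyte growth factor (HGF) was smaller in mouse hepatocytes that also received interleukin-6 (IL-6). They are 4 of 18194 genes measured on the arrays and of 14513 that passed an intensity filter. They were picked on the readout itself, as genes raised by HGF in which the HGF effect shrank when IL-6 was present. Their levels and differences are therefore given as a description with standard errors and without p-values. Each gene is represented by 1 probe set (a group of short probes for a transcript), the brightest on average over the 60 arrays, and all 4 passed the filter.

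Primary hepatocytes were isolated from male C57BL/6N mice of 8 to 12 weeks, 1 animal or a small pool of animals per experiment, and plated on collagen in medium without serum that contained dexamethasone. All groups share this culture. They received no factor, 40 ng/ml recombinant mouse HGF, 40 ng/ml recombinant human IL-6, or both at these doses per the series' design text. RNA was taken at the start, then at 0.5 h and 2 h, at 4 h and 8 h, and at 16 h, 24 h and 32 h, and hybridised to Affymetrix arrays. The table holds 60 arrays in 29 groups: 4 arrays of unstimulated cells at 0 h and 2 arrays in every other group, although the series text speaks of triplicates. The labels do not tie the 2 arrays of a group to separate animals, so that errors and p-values reflect only how far these arrays differ from each other, and the number of arrays limits the precision.

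HGF is a mitogen that binds the receptor tyrosine kinase MET on hepatocytes and signals through the RAS-MAP kinase (ERK) cascade and PI3 kinase. IL-6 binds its receptor together with gp130 and signals through JAK kinases and STAT3, and in liver it drives the acute phase response. Both factors take part in the regenerating liver. Ptgs2 encodes cyclooxygenase-2, the inducible enzyme that turns arachidonic acid into prostaglandin H2. Adm encodes adrenomedullin, a secreted vasodilator peptide that acts on the receptor Calcrl with a RAMP partner. Rrad encodes a small GTPase of the RGK family (Rad, Gem and Rem), which bind calcium channel beta subunits. Fam171b encodes a membrane protein whose function is little described.

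Promoter windows of RefSeq on build GRCm38.p6, from 250 bases before to 50 bases after the start of the gene, matched 2 of the 4 genes, Ptgs2 and Adm. They are shown because both genes were higher with HGF than without it by 2 h. Below, capitals mark the motif matches named after the sequences, all written 5′ to 3′ on the plus strand, the coding strand of both genes. The first Ptgs2 stretch is chr1:150099781-150100030, just before the start, and the second is chr1:150100039-150100068, just after it. The Adm stretch is chr7:110627407-110627656, before the start.
Ptgs2 before the start: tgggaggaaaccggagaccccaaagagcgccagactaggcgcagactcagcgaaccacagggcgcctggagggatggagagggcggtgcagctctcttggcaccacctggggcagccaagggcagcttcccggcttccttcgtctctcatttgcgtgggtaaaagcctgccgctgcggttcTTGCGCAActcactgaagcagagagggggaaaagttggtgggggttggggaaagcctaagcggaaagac
Ptgs2 after the start: cactaCGTCACGTGgagtccgctttacaga
Adm before the start: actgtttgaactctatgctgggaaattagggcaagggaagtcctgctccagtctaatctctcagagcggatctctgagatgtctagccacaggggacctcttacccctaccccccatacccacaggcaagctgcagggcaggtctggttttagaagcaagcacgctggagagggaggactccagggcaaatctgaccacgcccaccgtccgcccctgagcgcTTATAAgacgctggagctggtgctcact

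In the Ptgs2 window the C/EBP palindrome TTGCGCAA lies from -69 to -62 relative to the start of the gene, and 0.183% of 32851 promoter windows of the same length hold these letters. The cAMP response core CGTCA lies from 14 to 18, and 20.8% of windows hold these letters at any place on either strand. It overlaps the E-box CACGTG at 17 to 22, found in 7.15% of windows, which itself holds the hypoxia core ACGTG on both strands, found in 19.6%. In the Adm window the TATA letters TATAA lie on both strands between -28 and -23, and 24.9% of windows hold TATAA somewhere on either strand. The letters of an AP-1 site (TGANTCA), a STAT site (TTCNNNGAA), an NF-kB site, a full cAMP response element (TGACGTCA) and an Egr site (GCGNGGGCG) were searched on both strands and are not in either window. The shares of all windows that hold them are 7.81%, 8.3%, 20.7%, 1.79% and 5.55% in that order.

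Checks of the cells and of both stimuli came first. Albumin (Alb), a protein made by hepatocytes, lay between 14.15 and 14.44 log2 units on all 60 arrays, and 7 of 7 hepatocyte markers were above the filter. In unstimulated culture 7 of 7 fell against 0 h (limma moderated F-test over 7 hours; 75% of all genes passed, 40.4% higher and 34.6% lower), among them Cps1 of the urea cycle by 3.73 (SE 0.08) and Apoa1 by 2.53 (SE 0.09) at 32 h. Socs3, the feedback inhibitor induced by STAT3, lay between 6.39 and 7.26 in unstimulated cells and between 10.59 and 11.90 with IL-6. Egr1, an immediate early gene of the ERK cascade, rose by 2.26 (SE 0.09) at 2 h of HGF (limma moderated F-test over 7 hours, adjusted p = 3.76e-30). The log2 level of Met, the HGF receptor, stayed between 10.47 and 10.93 over all groups. Labelling control transcripts set 1 group of arrays apart: the 3′ minus 5′ difference of the dap spike lay between 1.18 and 1.52 in unstimulated cells from 0 to 4 h, and between 2.46 and 3.99 on the other 50 arrays. Differences against unstimulated cells at 0.5 to 4 h, and the interaction at those hours, cross this divide. Differences between conditions from 8 h on, and those between the combination and a single factor at any hour, do not. Differences of unstimulated culture from 8 h on against 0 h do cross it, with 1.34 to 1.39 at 0 h and 2.47 to 2.80 from 8 to 32 h. The hybridisation control bioB also differed between conditions. It lay at 8.13 to 8.53 in unstimulated cells, 5.94 to 8.47 with HGF, 5.51 to 7.21 with IL-6 and 5.38 to 6.03 with both. Of the stimulated arrays only those of HGF at 0.5 h (8.47 and 8.36) reached the unstimulated range. From 8 to 32 h bioB was 8.13 to 8.40 in unstimulated cells, 5.94 to 6.98 with HGF, 5.51 to 7.05 with IL-6 and 5.38 to 5.93 with both. Differences against unstimulated cells, and the interaction, thus cross a divide in bioB at these later hours too. The combination against HGF crosses a smaller one, since their ranges do not overlap from 8 to 32 h. From 0.5 to 4 h they do not overlap either (6.21 to 8.47 with HGF, 5.70 to 6.03 with both). At 8 h bioB with IL-6 (7.05 and 7.05) was also above that with both (5.47 and 5.87). The part of bioB in the results was not tested.

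Rrad, the RGK family GTPase, was higher with HGF from 2 h to the end of the series. In unstimulated cells the log2 intensities of its single probe set were 6.33, 6.34, 6.32 and 6.42 at 0 h. At later hours, replicate 1 first, they were 6.29 and 5.97 at 0.5 h, 5.98 and 5.85 at 2 h, 5.65 and 5.87 at 4 h, 5.79 and 5.94 at 8 h, 5.94 and 5.76 at 16 h, 6.05 and 6.11 at 24 h, and 5.86 and 5.80 at 32 h. The level in unstimulated culture thus drifted down from its 0 h value, by 0.59 (SE 0.11) on the log2 scale at 4 h. With HGF the values were 6.35 and 6.20 at 0.5 h, 7.27 and 7.30 at 2 h, 7.56 and 7.46 at 4 h, 7.99 and 8.06 at 8 h, 7.76 and 7.83 at 16 h, 7.53 and 7.20 at 24 h, and 6.65 and 6.79 at 32 h. From 2 h on, both HGF arrays were above both unstimulated arrays at every hour.

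IL-6 alone raised Rrad by 0.33 at 8 h, 0.35 at 16 h and 0.33 at 24 h (SE 0.13 at each). Rrad moved by at most 0.25 log2 units at the other hours. Its log2 intensities with IL-6 were 6.00 and 6.28 at 0.5 h, 6.16 and 6.16 at 2 h, 5.87 and 5.81 at 4 h, 5.93 and 6.46 at 8 h, 6.24 and 6.16 at 16 h, 6.47 and 6.36 at 24 h, and 5.81 and 5.84 at 32 h. With both factors they were 5.96 and 6.46 at 0.5 h, 6.86 and 6.91 at 2 h, 6.83 and 6.89 at 4 h, 7.45 and 7.32 at 8 h, 7.42 and 7.76 at 16 h, 7.07 and 7.20 at 24 h, and 6.51 and 6.32 at 32 h. The combination stood between IL-6 alone and HGF alone from 2 to 32 h by its mean, and its arrays did not overlap those of IL-6 at any of these 6 hours. Against HGF alone it was lower on both arrays at 2, 4, 8 and 32 h, while at 16 and 24 h its higher array came level with the lower HGF array (7.76 and 7.20, to 2 decimals).

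The HGF effect on Rrad, taken as the log2 difference at the same hour, was 1.37 at 2 h, 1.75 at 4 h, 2.16 at 8 h, 1.95 at 16 h, 1.28 at 24 h and 0.89 at 32 h without IL-6 (SE 0.13 at each). With IL-6 present it was 0.73, 1.02, 1.19, 1.39, 0.72 and 0.59 at the same hours (SE 0.13). The largest mean was at 8 h without IL-6 and at 16 h with it, but the latter order rests on 1 array, since without replicate 2 of IL-6 at 8 h the effect there was 1.45. As folds, 4.47 at 8 h compared with 2.27, and from 2 to 24 h the effect with IL-6 was between 52.9% and 71.6% of that without it on the log2 scale. The interaction, the HGF effect with IL-6 minus that without, was lowest at 8 h, at -0.97 (SE 0.19), and was -0.55 at 16 h. The combination against HGF was -0.40 at 2 h, -0.65 at 4 h and -0.64 at 8 h (SE 0.13 at each). At 16, 24 and 32 h it was -0.20, -0.23 and -0.31 (SE 0.13). The interaction at 16 and 24 h thus also holds the rise with IL-6 alone. The spread of the 2 IL-6 arrays at 8 h carries into the interaction, which was -1.24 without replicate 1 of that group and -0.71 without replicate 2.

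**Figure D1:**
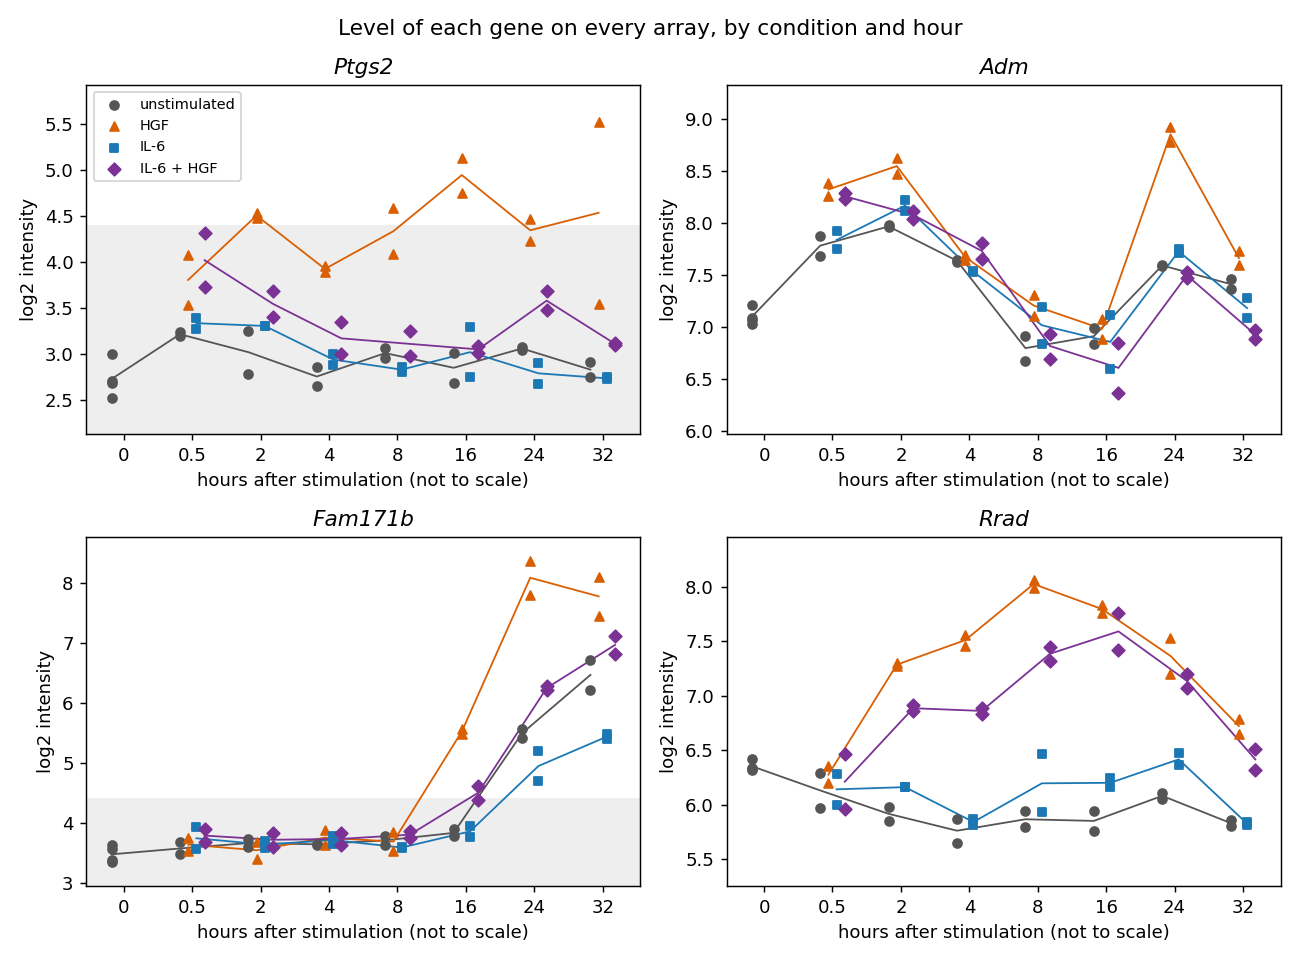
Log2 intensity of each gene on every array (y axis) against the hour after stimulation (x axis, not to scale), with 1 panel per gene; points are arrays, lines join group means, and the grey band lies below the 40th percentile of the arrays. Rrad with both factors runs between HGF and IL-6, Adm with HGF stands alone at 24 h (8.93 and 8.78), Fam171b is higher in all 4 conditions at 24 and 32 h than before, and Ptgs2 is mostly inside the grey band.

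Fam171b was flat near the bottom of the array until 8 h and stood higher in every condition by 24 h. In unstimulated cells its log2 intensities were 3.34, 3.56, 3.62 and 3.37 at 0 h, 3.47 and 3.67 at 0.5 h, 3.60 and 3.72 at 2 h, 3.65 and 3.63 at 4 h, 3.63 and 3.78 at 8 h, 3.89 and 3.77 at 16 h, 5.41 and 5.57 at 24 h, and 6.21 and 6.72 at 32 h. Unstimulated cells thus differed from 0 h by 2.01 (SE 0.16) at 24 h and 2.99 (SE 0.16) at 32 h, a comparison that crosses the labelling divide, while the step from 16 h (3.89 and 3.77) to 32 h (6.21 and 6.72) does not. With HGF the values were 3.53 and 3.74 at 0.5 h, 3.40 and 3.68 at 2 h, 3.63 and 3.87 at 4 h, 3.53 and 3.84 at 8 h, 5.56 and 5.48 at 16 h, 8.37 and 7.80 at 24 h, and 7.45 and 8.10 at 32 h. Both HGF arrays at 16 h were within the range of levels that unstimulated cells reached at 24 h.

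Fam171b lay below the unstimulated level with IL-6 at 24 and 32 h. With IL-6 alone the log2 intensities were 3.92 and 3.56 at 0.5 h, 3.69 and 3.58 at 2 h, 3.64 and 3.78 at 4 h, 3.60 and 3.57 at 8 h, 3.95 and 3.76 at 16 h, 5.20 and 4.69 at 24 h, and 5.39 and 5.48 at 32 h. With both factors they were 3.67 and 3.90 at 0.5 h, 3.60 and 3.83 at 2 h, 3.83 and 3.63 at 4 h, 3.74 and 3.86 at 8 h, 4.38 and 4.62 at 16 h, 6.28 and 6.21 at 24 h, and 6.81 and 7.12 at 32 h. At 16, 24 and 32 h both HGF arrays were above both combination arrays, which in turn were above both IL-6 arrays. IL-6 alone against unstimulated cells gave -0.54 (SE 0.18) at 24 h and -1.03 (SE 0.18) at 32 h.

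The HGF effect on Fam171b was 1.69 at 16 h, 2.60 at 24 h and 1.31 at 32 h without IL-6, and 0.65, 1.30 and 1.53 with it (SE 0.18 at each). The interaction was -1.04 at 16 h and -1.30 at 24 h, and 0.22 at 32 h (SE 0.26 at each). At 32 h the fold was 2.48 without IL-6 and 2.89 with it, so that on the log2 scale the HGF effect was no longer smaller, while the level with both factors remained 0.81 (SE 0.18) below HGF alone. On the linear scale the difference at 32 h was 135 intensity units without IL-6 and 82.4 with it. The second probe set of Fam171b gave -1.50 for the interaction at 24 h and -0.55 at 32 h, so that the 2 probe sets differ in sign at 32 h. The chosen probe set lay above the 40th percentile on 20 of 60 arrays, those of all conditions at 24 and 32 h and those of HGF and the combination at 16 h, so that the references at 16 h were dim.

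Adm, the adrenomedullin gene, was higher on both HGF arrays than on both unstimulated arrays at 5 of 7 hours, 0.5, 2, 8, 24 and 32 h, with the largest difference at 24 h. In unstimulated cells its log2 intensities were 7.21, 7.09, 7.07 and 7.03 at 0 h, 7.69 and 7.88 at 0.5 h, 7.96 and 7.98 at 2 h, 7.63 and 7.65 at 4 h, 6.92 and 6.68 at 8 h, 6.84 and 6.99 at 16 h, 7.59 and 7.60 at 24 h, and 7.37 and 7.46 at 32 h. Unstimulated cells differed from 0 h by 0.87 (SE 0.11) at 2 h and by -0.30 (SE 0.11) at 8 h, the latter across the labelling divide. With HGF the values were 8.26 and 8.39 at 0.5 h, 8.63 and 8.47 at 2 h, 7.70 and 7.65 at 4 h, 7.11 and 7.31 at 8 h, 7.08 and 6.89 at 16 h, 8.93 and 8.78 at 24 h, and 7.60 and 7.73 at 32 h. The 24 h HGF arrays were the highest of all 60.

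With IL-6 alone the log2 intensities of Adm were 7.75 and 7.93 at 0.5 h, 8.22 and 8.12 at 2 h, 7.54 and 7.53 at 4 h, 6.84 and 7.20 at 8 h, 6.60 and 7.12 at 16 h, 7.71 and 7.75 at 24 h, and 7.28 and 7.09 at 32 h. With both factors they were 8.29 and 8.23 at 0.5 h, 8.12 and 8.04 at 2 h, 7.66 and 7.81 at 4 h, 6.70 and 6.94 at 8 h, 6.37 and 6.85 at 16 h, 7.53 and 7.47 at 24 h, and 6.97 and 6.89 at 32 h. At 0.5 h the combination overlapped HGF. At 24 h both combination arrays were below both IL-6 arrays.

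The HGF effect on Adm without IL-6 was 0.54 at 0.5 h, 0.58 at 2 h, 0.03 at 4 h, 0.41 at 8 h, 0.07 at 16 h, 1.26 at 24 h and 0.25 at 32 h (SE 0.12 at each). With IL-6 it was 0.42, -0.09, 0.21, -0.20, -0.25, -0.23 and -0.25 at the same hours (SE 0.12). The fold at 24 h was 2.4 without IL-6 and 0.853 with it. The interaction was -0.68 at 2 h, -0.61 at 8 h and -1.49 at 24 h (SE 0.17 at each). The 2 h value crosses the labelling divide, while the combination against HGF, which does not cross it, was -0.47 (SE 0.12) at 2 h and -1.35 (SE 0.12) at 24 h. The probe set used is of a class whose probes can match other transcripts. The second probe set of Adm gave 1.12 without IL-6, -0.38 with IL-6 and -1.50 for the interaction at 24 h. At 8 h it gave 0.07 without IL-6 and -0.30 for the interaction, smaller than with the probe set used.

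Ptgs2, the cyclooxygenase-2 gene, gave the lowest interaction of all 14513 genes at 16 h, but from a dim probe set that lay above the 40th percentile (4.28 to 4.40) on 8 of 60 arrays, 7 with HGF alone and 1 with both factors at 0.5 h. In unstimulated cells the log2 intensities were 2.71, 3.0, 2.69 and 2.53 at 0 h, 3.20 and 3.24 at 0.5 h, 3.26 and 2.79 at 2 h, 2.86 and 2.66 at 4 h, 2.96 and 3.07 at 8 h, 2.69 and 3.02 at 16 h, 3.05 and 3.08 at 24 h, and 2.92 and 2.75 at 32 h. With HGF they were 4.08 and 3.54 at 0.5 h, 4.54 and 4.48 at 2 h, 3.96 and 3.90 at 4 h, 4.59 and 4.09 at 8 h, 4.76 and 5.14 at 16 h, 4.23 and 4.47 at 24 h, and 5.53 and 3.55 at 32 h. Both HGF arrays exceeded both unstimulated arrays at all 7 hours, and the pair at 32 h stood far apart.

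With IL-6 alone the log2 intensities of Ptgs2 were 3.28 and 3.40 at 0.5 h, 3.31 and 3.31 at 2 h, 2.89 and 3.0 at 4 h, 2.81 and 2.86 at 8 h, 3.30 and 2.75 at 16 h, 2.68 and 2.91 at 24 h, and 2.73 and 2.75 at 32 h. With both factors they were 3.73 and 4.32 at 0.5 h, 3.69 and 3.41 at 2 h, 3.0 and 3.35 at 4 h, 2.98 and 3.25 at 8 h, 3.09 and 3.02 at 16 h, 3.69 and 3.48 at 24 h, and 3.13 and 3.10 at 32 h. At 0.5 h the combination overlapped HGF, and from 2 h on both combination arrays were below both HGF arrays. At 16 h they lay between the 2 IL-6 arrays.

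The HGF effect on Ptgs2 without IL-6 was 0.59 at 0.5 h, 1.49 at 2 h, 1.17 at 4 h, 1.32 at 8 h, 2.09 at 16 h, 1.29 at 24 h and 1.71 at 32 h (SE 0.28 at each). With IL-6 it was 0.68, 0.24, 0.23, 0.28, 0.04, 0.79 and 0.38 (SE 0.28). The interaction at 16 h was -2.06 (SE 0.40). The unstimulated, IL-6 and combination arrays of that hour were all below the 40th percentile. The combination against HGF was -1.89 (SE 0.28) at 16 h and -0.96 at 2 h. IL-6 alone moved the probe set by -0.27 to 0.29 (SE 0.28). The HGF effect at 32 h was 0.72 without replicate 1 of HGF and 2.70 without replicate 2, and the interaction was -0.34 and -2.32, so that 1 array decides the value at that hour. At 0.5 h the effect without IL-6 was 0.32 without replicate 1 of HGF, and that with IL-6 was 0.39 without replicate 2 of the combination. The second Ptgs2 probe set did not show the pattern: at 16 h it gave 0.18 without IL-6, 0.32 with IL-6 and 0.14 for the interaction, the opposite sign. Its values stayed below the 40th percentile on all 60 arrays.

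**Figure D2:**
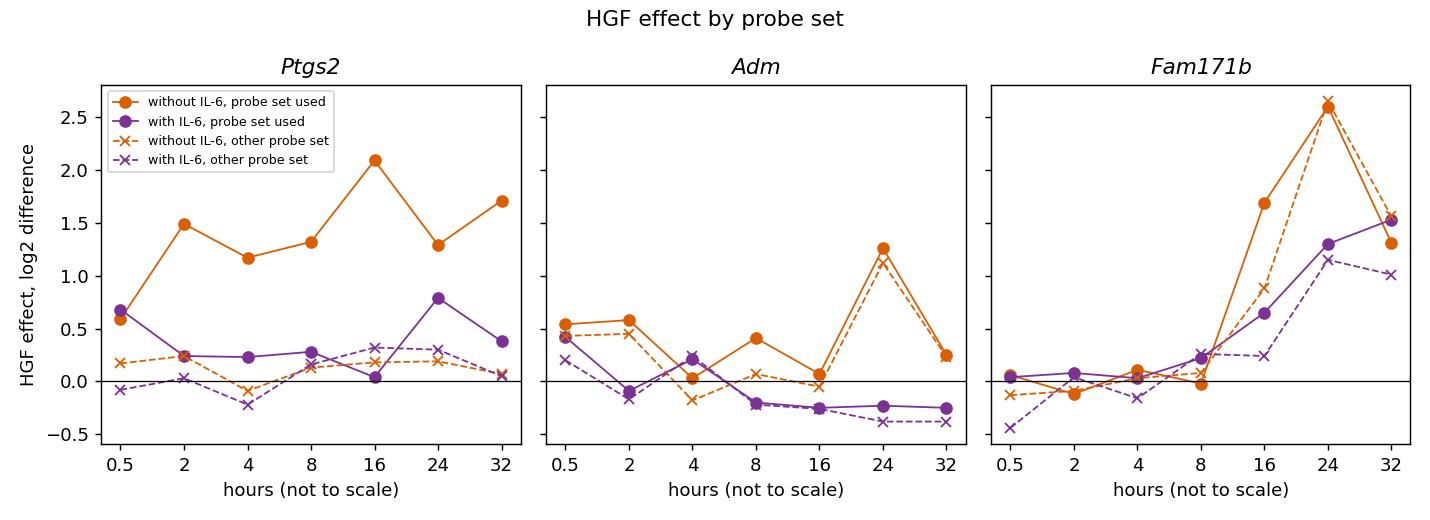
HGF effect as a log2 difference (y axis) by hour (x axis, not to scale) for the 3 genes with 2 probe sets; circles and solid lines are the probe set used, crosses and dashed lines the other one, orange without IL-6 and purple with it. Both probe sets of Adm (1.26 and 1.12 at 24 h) and of Fam171b (2.60 and 2.65 at 24 h) peak at the same hour without IL-6, those of Fam171b with IL-6 differ at 32 h (1.53 and 1.01), and those of Ptgs2 part (2.09 and 0.18 at 16 h).

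Set side by side, the 4 genes differed in timing. The largest HGF effect without IL-6 came at 8 h for Rrad, 16 h for Ptgs2, and 24 h for Adm and Fam171b. The lowest interaction came at those same hours in each gene. It was the lowest of 14513 genes for Ptgs2 at 16 h, rank 2 for Adm and rank 3 for Fam171b at 24 h, and rank 9 for Rrad at 8 h, ranks that restate how the genes were chosen. With IL-6 present the HGF effect was -0.23 for Adm at 24 h, 1.30 for Fam171b at 24 h and 1.19 for Rrad at 8 h. For Ptgs2 at 16 h it was 0.04, between arrays that all lie below the 40th percentile.

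Both HGF arrays exceeded both unstimulated arrays in 2 of the 4 genes at 0.5 h, 3 at 2 h, 2 at 4 h, 3 at 8 and at 16 h, and 4 at 24 and at 32 h. Over all 14513 genes that held for 31.1% at 0.5 h, 29.9% at 2 h, 30.6% at 4 h, 30% at 8 h, 32.5% at 16 h, 31.8% at 24 h and 29% at 32 h. Both HGF arrays exceeded both combination arrays in 0 of the 4 genes at 0.5 h, 3 at 2 h, 2 at 4 h, 3 at 8, 16 and 24 h, and 4 at 32 h. The share of all genes was 17.2% at 0.5 h, 28.2% at 2 h, 32.6% at 4 h, 29.7% at 8 h, 27.4% at 16 h, 28.2% at 24 h and 27% at 32 h. Both combination arrays exceeded both IL-6 arrays in 2 of the 4 genes at 0.5, 2 and 16 h and in 3 at 4, 8, 24 and 32 h. Among all genes this held for 35% at 0.5 h, 24.8% at 2 h, 22.6% at 4 h, 24.8% at 8 h, 28.9% at 16 h, 28.3% at 24 h and 28.1% at 32 h. The genes were picked on these contrasts, so nothing is read from their share.

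**Figure D3:**
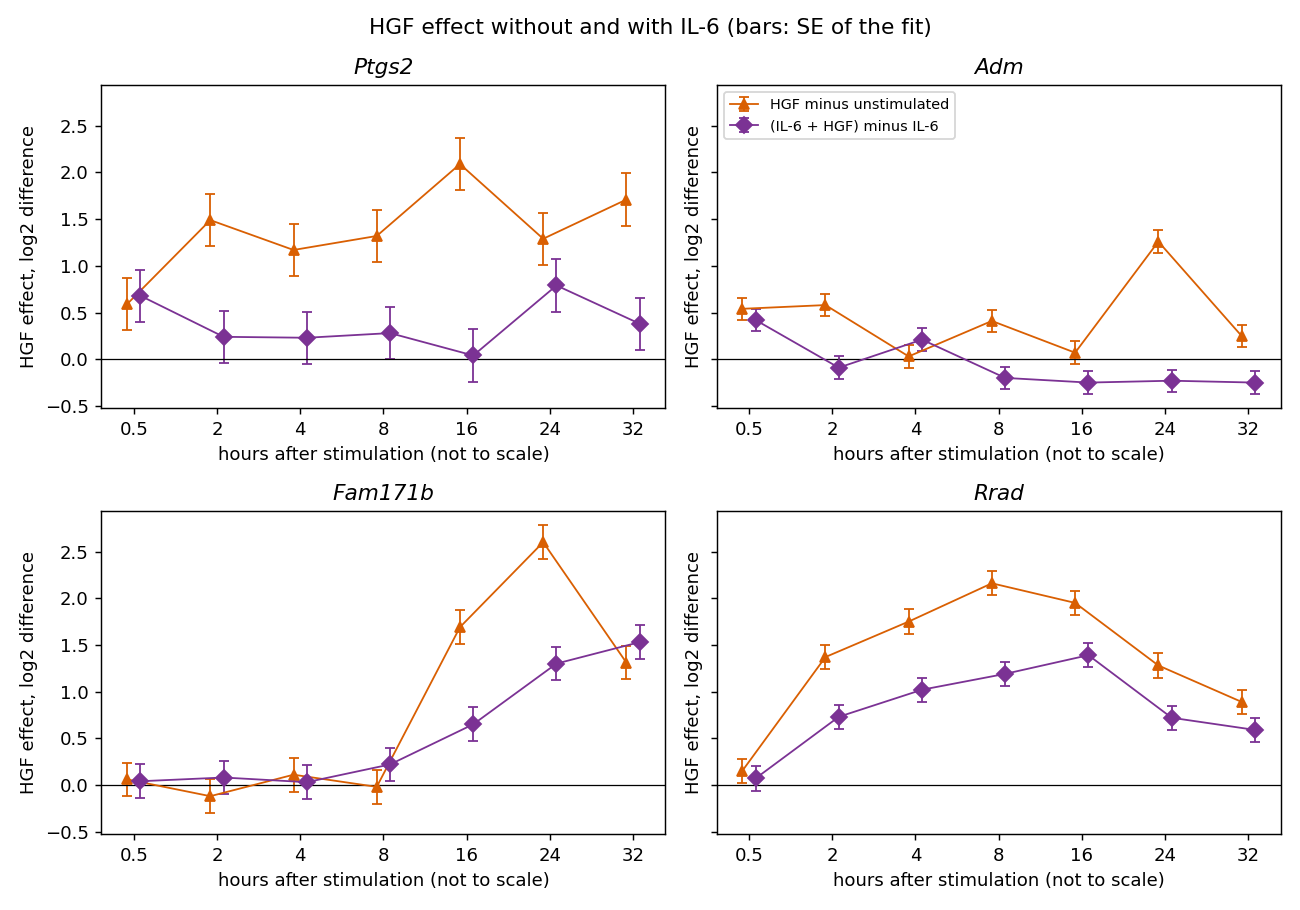
HGF effect as a log2 difference (y axis) by hour (x axis, not to scale), with 1 panel per gene; triangles are HGF minus unstimulated, diamonds the combination minus IL-6, and bars the SE of the fit over all 60 arrays. The curves part most at 16 h for Ptgs2 (2.09 and 0.04), 24 h for Adm (1.26 and -0.23) and Fam171b (2.60 and 1.30), and 8 h for Rrad (2.16 and 1.19), and they cross for Fam171b at 32 h (1.31 and 1.53).

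In the order of group means, Rrad was highest with HGF at 8 h (8.02), followed by HGF at 16 h (7.80) and the combination at 16 h (7.59). Adm was highest with HGF at 24 h (8.85) and at 2 h (8.55), and lowest with both factors at 16 h (6.61). Fam171b was highest with HGF at 24 h (8.08) and 32 h (7.78), whose arrays overlap, then with both factors at 32 h (6.97) and in unstimulated cells at 32 h (6.46). Ptgs2 had its 5 highest means in HGF groups, led by HGF at 16 h (4.95). Of 28 pairs of neighbours in this order, the arrays overlapped in 24 for Ptgs2, 22 for Fam171b, 21 for Rrad and 17 for Adm. Across the 29 group means the Pearson correlation was 0.68 between Ptgs2 and Rrad, 0.41 between Ptgs2 and Adm, 0.28 between Ptgs2 and Fam171b, 0.16 between Fam171b and Rrad, 0.06 between Adm and Fam171b and 0.00 between Adm and Rrad. These are descriptions over groups that share hours and culture.

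The genes most like each of the 4, by Pearson correlation over the 29 group means, were led for Fam171b by Rbm8a (0.957), Ppic (0.954), Paqr3 (0.952), Ascc2 (0.948) and Cmtm7 (0.947), and all 5 had their highest mean with HGF at 32 h. For Rrad they were Phc2 (0.892), Hmga2-ps1 (0.888), Dkc1 (0.877), Hccs (0.869) and Vasp (0.868), of which Vasp also peaked with HGF at 8 h. For Adm they were Tasp1 (0.837), Pspc1 (0.810), Sgk1 (0.793), Mcl1 (0.787) and Dnajb6 (0.771), of which Tasp1 peaked with HGF at 24 h and Sgk1, a serum and glucocorticoid induced kinase, with HGF at 2 h. For Ptgs2 they were Tex10 (0.809), Arhgap22 (0.787), Gpatch4 (0.775), Nt5dc3 (0.769) and Slc19a1 (0.767), and all 5 peaked in an HGF group.

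The pathways around each gene were then tested with limma's moderated F-test over the 7 hours, Benjamini-Hochberg adjusted over all 14513 genes with a threshold of 0.05. Among these genes the interaction passed for 33.6%, with 18.9% higher and 14.6% lower by the direction at the hour where the difference was greatest. Restricted to 8 to 32 h, it passed for 19.7%, with 11.4% higher and 8.28% lower. At those hours the labelling control does not separate the groups, while bioB separates unstimulated cells from the others and HGF from the combination. The HGF effect without IL-6 passed for 62.6% of genes (29.8% higher and 32.8% lower) and that with IL-6 for 44.1% (23.2% higher and 20.9% lower).

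Around Ptgs2, 6 of 18 prostaglandin pathway genes past the filter had an interaction that passed, 5 higher and 1 lower, and the same numbers held over 8 to 32 h. The 5 higher ones, the enzymes Cbr1, Ptgr1 and Ptgr2, the transporter Slco2a1 and the receptor Ptgfr, include no synthase. Cbr1, a carbonyl reductase that can act on prostaglandin E2, fell by 1.23 (SE 0.07) at 16 h with HGF and by 0.53 with HGF in the presence of IL-6, an interaction of 0.70 (SE 0.10, adjusted p = 6.13e-08). The prostaglandin reductases Ptgr1 and Ptgr2 had interactions of 0.45 (adjusted p = 8.05e-05) and 0.36 (adjusted p = 0.00501) at 16 h, of which that of Ptgr2 did not pass with the mean over its probe sets (0.20, adjusted p = 0.23). Hpgd, the dehydrogenase that inactivates prostaglandins, was the 1 lower gene, at -0.70 (SE 0.15) at 24 h (adjusted p = 0.00051). IL-6 alone also lowered the 5 genes with a higher interaction, by up to 0.95 for Cbr1, 0.42 for Ptgr1 and 0.39 for Ptgr2. The fall was up to 0.21 for Slco2a1 and up to 1.02 for Ptgfr. For Hpgd the largest difference with IL-6 alone was -0.81 at 4 h, across the labelling divide and not at its interaction hour. At 24 h the HGF effect on Hpgd was 0.48 without IL-6 and -0.22 with it. At the hour of the interaction, the combination against HGF was -0.15 for Cbr1, 0.03 for Ptgr1 and -0.03 for Ptgr2. It was 0.32 for Slco2a1, 0.07 for Ptgfr and -0.02 for Hpgd. For Hpgd at 24 h IL-6 alone thus stood above unstimulated cells. Ptges, the inducible prostaglandin E synthase, had an HGF effect without IL-6 of 0.24 (SE 0.15) at 24 h that did not pass (adjusted p = 0.519). The receptor Ptger4 rose by 1.25 (SE 0.15) at 2 h of HGF (adjusted p = 7.26e-08), with an interaction of -0.39 (SE 0.21) that did not pass (adjusted p = 0.451). The mean log2 level of the Ptger4 probe set was 3.84, below the 40th percentile, and its 2 h values cross the labelling divide.

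Around Adm, none of the 7 adrenomedullin pathway genes past the filter had an interaction that passed, and 0 had an unadjusted p under 0.05. The receptor Calcrl rose by 0.50 (SE 0.15) at 8 h of HGF (adjusted p = 0.00469), and its interaction at 2 h was -0.64 (SE 0.22, adjusted p = 0.126), with an adjusted p of 0.045 without replicate 1 of HGF at 32 h. Its partner proteins Ramp2 and Ramp3 had HGF effects of -0.36 (SE 0.13) at 32 h and -0.21 (SE 0.13) at 8 h that did not pass. Adm is also a known target of hypoxia-inducible factors. Of 17 hypoxia response genes 13 had an interaction that passed, 6 higher and 7 lower (12 over 8 to 32 h, 6 higher and 6 lower), so these genes did not move one way. Ndrg1, a stress-induced gene of that list, rose by 0.93 (SE 0.05) at 16 h with HGF and by 0.22 (SE 0.05) with IL-6 present, an interaction of -0.71 (SE 0.08, adjusted p = 2.34e-11). Hif1a itself had -0.48 (SE 0.07) at 2 h (adjusted p = 1.41e-09), and the glucose transporter Slc2a1 -0.41 (SE 0.08) at 2 h (adjusted p = 1.58e-07). The glycolytic enzyme Pgk1 had -0.38 (SE 0.05) at 32 h (adjusted p = 1.57e-07). The 2 h values of Calcrl, Hif1a and Slc2a1 cross the labelling divide. IL-6 alone raised Ndrg1 by up to 0.84, Hif1a by up to 0.93 and Slc2a1 by up to 0.53, and Pgk1 by 0.08 at 32 h. At the hour of the interaction, the combination against HGF was 0.00 for Ndrg1, 0.15 for Hif1a, 0.12 for Slc2a1 and -0.30 for Pgk1.

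Around Rrad, the relative Gem was measured but did not pass the filter. Without IL-6, Rem2 had an HGF effect of -0.18 (SE 0.14) at 2 h that did not pass (adjusted p = 0.636). With IL-6 its HGF effect passed, at 0.45 (SE 0.14) at 32 h (adjusted p = 0.0278), while its interaction did not (adjusted p = 0.459). Of 6 genes of RGK proteins, calcium channel subunits and their kinases, 2 had an interaction that passed, 1 higher and 1 lower, and 1 over 8 to 32 h. The lower gene was Camk2d, a calcium/calmodulin-dependent kinase, at -0.40 (SE 0.13) at 24 h (adjusted p = 0.00673). The higher was Camk2b, at 0.48 (SE 0.16) at 0.5 h (adjusted p = 0.0219), an hour that crosses the labelling divide. Camk2b fell short after quantile normalization (adjusted p = 0.0808). Its call was also lost without replicate 2 of unstimulated cells, replicate 1 of IL-6 or replicate 1 of the combination at 0.5 h (adjusted p = 0.0549, 0.0593 and 0.0587). Of the relatives of Fam171b, Fam171a1 and Fam171a2, 0 of 2 passed for the HGF effect or the interaction, nor did either have an unadjusted p under 0.05.

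The ERK outputs are genes whose transcription follows the MAP kinase cascade. With HGF alone 16 of 17 rose and 1, Etv4, fell, and with HGF in the presence of IL-6 15 of 17 rose. For the interaction 12 of 17 passed, all lower, and over 8 to 32 h 11 of 17, all lower. IL-6 alone also changed these genes: 12 of 17 passed against unstimulated cells, 9 higher and 3 lower, beside 55.1% of all genes (23.4% higher and 31.7% lower). At the hour of the interaction, the combination was above HGF in 3 of the 12 and below it in 9, by -0.72 to 0.35 with a median of -0.15. The median of the list at 16 h was 0.74 without IL-6, 0.47 with it and -0.30 for the interaction, beside -0.01, 0.01 and 0.01 over all genes. Ier3, an immediate early survival gene, rose by 1.33 (SE 0.05) at 2 h of HGF, with an interaction of -0.96 (SE 0.07, adjusted p = 3.3e-15). The unstimulated arrays of 2 h lie across the labelling divide. IL-6 alone raised Ier3 by 1.31 (SE 0.05), and the combination was 0.35 above HGF. Dusp6, a phosphatase that inactivates ERK, had an interaction of -0.92 (SE 0.10) at 24 h (adjusted p = 1.05e-14), where the combination was -0.11 against HGF. Fosl1, a subunit of AP-1, had -0.88 (SE 0.12) at 16 h (adjusted p = 4.34e-09), with the combination at -0.72 against HGF. Egr1 had -0.72 (SE 0.13) at 8 h (adjusted p = 3.28e-08), where its mean was 11.03 with both and 11.22 with HGF, whereas at 2 h it was 12.23 with both and 11.25 with HGF. The list was chosen with earlier results of these data known, and its direction is no independent evidence about the 4 genes.

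**Figure D4:**
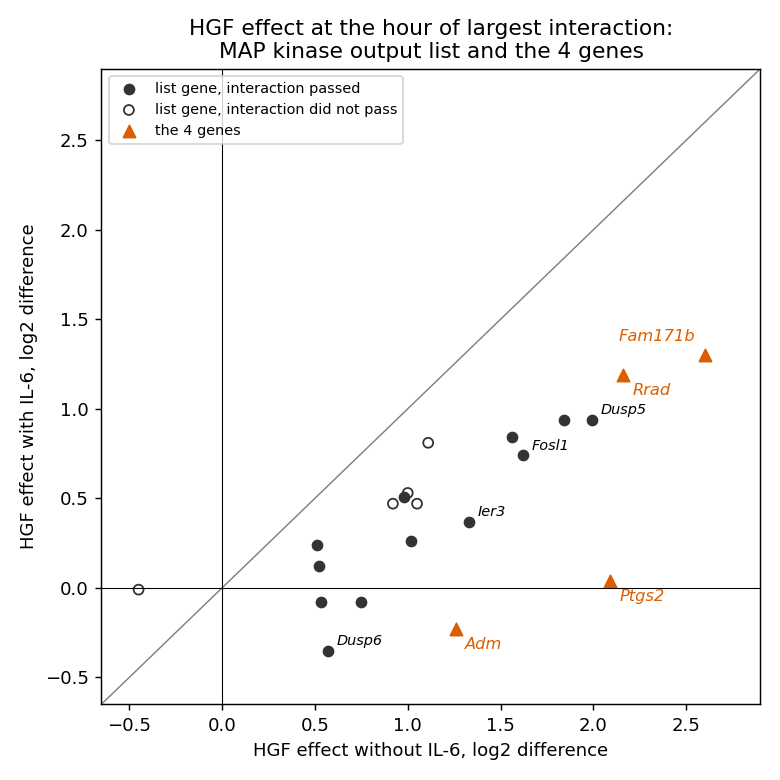
HGF effect with IL-6 (y axis) against HGF effect without IL-6 (x axis), both as log2 differences at the hour of each gene's largest interaction; circles are the 17 ERK output genes, filled where the interaction passed, triangles are the 4 genes, and the diagonal marks equal effects. All 4 triangles and the 12 filled circles lie below the diagonal, with Adm at 1.26 and -0.23 and Ptgs2 at 2.09 and 0.04.

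Of 10 cAMP and CREB target genes 4 had an interaction that passed, all higher, and 2 over 8 to 32 h. Pck1, the gluconeogenic enzyme, fell by 2.24 (SE 0.27) at 16 h with HGF and had an interaction of 1.73 (SE 0.38) at 8 h (adjusted p = 0.000111). Of 13 genes of proteins that bind AU-rich elements or degrade mRNA, a group that acts on the Ptgs2 messenger, 9 passed, 3 higher and 6 lower, and 4 over 8 to 32 h. Zfp36 (tristetraprolin), which speeds decay of such messengers, had an interaction of 0.64 (SE 0.11) at 4 h (adjusted p = 3.26e-08), an hour that crosses the labelling divide. Of 8 genes close to the HGF receptor 5 passed, 2 higher and 3 lower, and 3 over 8 to 32 h. Met had an interaction of -0.28 (SE 0.07) at 16 h (adjusted p = 4.45e-05), which was -0.19 with the mean over its probe sets and did not pass. Of 9 genes of the IL-6 receptor and its feedback 6 passed, 3 higher and 3 lower, and 3 over 8 to 32 h. The receptor subunits Il6ra (0.31, SE 0.11, at 4 h) and Il6st (0.12, SE 0.07, at 4 h) did not pass.

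Markers of other liver cells were read beside these results, since in bulk RNA fewer cells of a type and less RNA per cell cannot be told apart. For each list the log2 of the summed linear intensities is given, which weighs the brightest markers most. Of the macrophage list 8 of 8 markers were above the filter. Their log2 sum at 8 to 32 h was 9.09 to 9.51 in unstimulated cells, 9.02 to 9.45 with HGF, 8.97 to 9.38 with IL-6 and 8.90 to 9.31 with both. Of these markers, 1 of 8 had an interaction that passed, Adgre1 at -0.67 (SE 0.18) at 2 h (adjusted p = 0.00762). That hour crosses the labelling divide, and 0 of 8 macrophage markers passed over 8 to 32 h. The log2 sum of 4 of 4 measured cholangiocyte markers was 8.49 to 9.10, 8.85 to 10.07, 8.39 to 9.49 and 8.72 to 9.35 in the same order. Krt19 had an interaction of -1.27 (SE 0.21) at 32 h (adjusted p = 7.32e-05). Of the endothelial list 7 of 7 were above the filter, with 8.35 to 8.74, 8.10 to 8.65, 8.39 to 8.72 and 8.18 to 8.77, and 1 of 7 had an interaction that passed, Pecam1 at 0.80 (SE 0.25) at 4 h (adjusted p = 0.0126). Pecam1 exceeded the 40th percentile on 7 of 60 arrays, its hour crosses the labelling divide, and 0 of 7 endothelial markers passed over 8 to 32 h. Stellate cell or fibroblast markers were above the filter in 6 of 7 (all but Lrat), with 8.46 to 8.60, 8.22 to 8.51, 8.50 to 8.86 and 8.40 to 8.66, and 0 of 6 had an interaction that passed, with 1 at an unadjusted p under 0.05. Of 5 leukocyte markers, Ptprc, Nkg7 and S100a8 did not exceed the 40th percentile on any array, while Cd3e did on 60 and Cd79a on 58. Of 4 mesothelial markers, Upk3b, Gpm6a and Wt1 did not on any, and Msln did on 5. Of the 7 hepatocyte markers 6 fell with HGF (Tat, an amino acid catabolic enzyme, by 1.34, SE 0.14, at 24 h), 7 fell with IL-6, and 4 had an interaction that passed, 3 higher and 1 lower. The part of these cells in the 4 genes' values was not tested.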

How the data were processed

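The values are log2 intensities of 45101 probe sets on 60 arrays, as deposited by the authors in the table of the series. The labels' protocols give One-Cycle biotin labelling and Affymetrix mouse arrays. The summary and scaling steps behind the table are not given in the sources used here. Medians of the arrays lay between 4.88 and 4.97, and the values were used as deposited. No 2 arrays held identical values (1770 pairs).

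Probe sets with 1 gene symbol (34958) were kept, 932 with several symbols and 9211 with none listed were left out, and each gene took its probe set with the highest mean. Genes above the 40th percentile of the array on at least 2 arrays were fitted. A model with 1 mean per group over all 60 arrays was fitted in limma 3.58.1 (R 4.3.3), with eBayes moderation that follows the mean-variance trend and 31 residual degrees of freedom, and the code was tested on simulated data. HGF against unstimulated cells, the combination against IL-6, the interaction, IL-6 against unstimulated cells and culture time against 0 h were each a moderated F-test over 7 hours, adjusted by Benjamini-Hochberg.

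The genes and the lists (10 pathway lists and 7 marker lists) were chosen with earlier results of these data known. Named genes are the 4 genes, the 4 genes of each pathway list with the smallest adjusted p of the interaction, further genes of the prostaglandin, adrenomedullin, RGK and Fam171 lists by role, Socs3, Egr1, Met, Il6ra and Il6st, and the 5 genes most correlated with each of the 4. Marker genes are named where their interaction passed or where they define a cell type. Settings varied were the normalization, the filter, the probe set rule, the arms fitted, the variance trend, the replicate block, the scale, the hours and each array in turn. Residuals of arrays with the same replicate number correlated between -0.27 and 0.25 over 378 pairs of groups, so the number was not used as a block.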

Additional observations from a re-analysis of the deposited data

Results flagged for a closer look

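Adm at 24 h moved in opposite directions in the presence and absence of IL-6: the HGF effect was 1.26 without IL-6, with both HGF arrays above both unstimulated arrays, and -0.23 with IL-6, with both combination arrays below both IL-6 arrays. At 32 h the same held, with 0.25 without IL-6 and -0.25 with it (SE 0.12 for each value at both hours). These were 2 of 28 combinations of gene and hour in which every array of one comparison moved one way and every array of the other the opposite way. The share of all genes for which this holds was not counted, so nothing is read from that number. The difference between the effects was not tested, because the genes were picked on it. In the 4 groups of 4 arrays (each gene at 0 h) no array stood apart from the others.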

How the results depend on the processing

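Restricting the interaction to 8 to 32 h, a choice made after seeing the data because the labelling control separates earlier unstimulated arrays, left 2862 genes in place of 4872. With the other probe set the Ptgs2 interaction at 16 h was 0.14, and the Ptgs2 effect with IL-6 at 16 h was -0.24 without replicate 2 of IL-6 and 0.31 without replicate 1. With the mean over probe sets Ptgs2 did not pass the filter, and the interactions of Fam171a2 (-0.15), Crem (-0.00058) and Jak1 (-0.11) changed sign. A further 7 named genes of the pathway lists, Ptgr2 and Met among them, kept the sign but no longer passed for the interaction in that setting. The cause was not tested. Interaction counts of list genes came to 57, and to 39 with the mean over probe sets and 42 over 8 to 32 h. Leaving out each array in turn gave 8850 to 9128 genes for HGF without IL-6, 5939 to 6604 with IL-6, 4575 to 5058 for the interaction, 7704 to 8131 for IL-6, 10351 to 10946 for culture time and 55 to 60 list genes. Among named genes these fits changed the interaction calls of Camk2b and Calcrl, given with those genes. With the replicate number as a block the counts were 9092, 6458, 4914, 8047 and 10784 in that order, with 57 list genes, and the block changed no call of a named gene. On the linear scale and after quantile normalization the 4 genes kept the direction of all 12 effects at the hour of each gene's largest HGF effect, but the Fam171b interaction at 32 h was 0.22 on the log2 scale and -52.8 intensity units on the linear scale. Dim signal limits Ptgs2 throughout and Fam171b up to 16 h, where its unstimulated and IL-6 arrays were below the 40th percentile.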
